A study of Cavia porcellus with 12 samples.

Results

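The genes of the TGF-beta ligands, *TGFB1*, *TGFB2* and *TGFB3*, and of the latent TGF-beta binding proteins, *LTBP2*, *LTBP3* and *LTBP4*, were compared in liver RNA of guinea pigs with and without nonalcoholic steatohepatitis (NASH). These 6 genes were taken by symbol from the deposited expression table, which holds 11896 symbols of human orthologues, and all 6 were present, so all had passed the authors' minimum of 200 reads over all animals. *LTBP1* is not among the symbols of that table and was not analysed here. Controls (n = 6) were Dunkin Hartley guinea pigs kept on chow for 25 weeks, and the animals with NASH (n = 6) were of the same strain and had received a high-fat diet, also rich in sucrose and cholesterol, for 25 weeks. By the study's methods all were females, 10 weeks old on arrival. The NASH group was picked from the high-fat-fed animals for bridging fibrosis, whereas the controls were drawn at random from animals without NASH and fibrosis, so diet and selection by histology cannot be told apart. Samples came from the left lateral lobe of livers that had not been perfused and still held blood. Each library is a separate animal, named here by its group and its number in the labels.

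TGF-beta is secreted in a silent form. Each ligand is cut from a longer precursor, and the remaining propeptide, the latency-associated peptide, stays wrapped around the mature dimer. A latent TGF-beta binding protein can be joined to this propeptide by disulphide bonds, carries it out of the cell and fastens it to fibronectin and to microfibrils of fibrillin. Integrins of the αv type, thrombospondin 1 and several proteases free the ligand, which then binds a pair of receptor kinases that phosphorylate SMAD2 and SMAD3. In the liver TGF-beta is best known as the signal that turns hepatic stellate cells into collagen-producing myofibroblasts. LTBP3 binds latent ligands readily and LTBP4 weakly, whereas LTBP2 does not bind them and is known as a protein of microfibrils.

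Library totals ran from 16980274 to 28636467 counts for the controls and from 23704607 to 33091460 counts for NASH. Levels are given as CPM, counts relative to the library total corrected with the TMM factors of edgeR, which allow for libraries of different composition. An animal without a count could still hold 3 counts, at most 0.214 CPM for a control and 0.105 CPM for NASH. CPM is not per gene length, so levels are compared between animals and not between genes. Changes were tested with edgeR's quasi-likelihood test over all 11896 symbols, taking a p-value under 0.05 after Benjamini-Hochberg adjustment as the threshold. *ALB*, the hepatocyte gene for albumin, was at 74900 ± 7810 CPM (SD, n = 6) in controls and 30500 ± 5730 CPM (SD, n = 6) in NASH. The summed markers of red blood cells, among them *HBA1*, a haemoglobin gene whose count row carries a further symbol, were at 4520 CPM in NASH 41 and 3280 CPM in NASH 65 against 426 to 725 CPM in the other animals with NASH, so the 6 genes are also given without both.

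Of the 6 genes, 5 rose in guinea pigs with NASH and none fell. *LTBP2* rose most, 55.5-fold, followed by *TGFB3* with 6.67-fold, *LTBP3* with 2.95-fold, *TGFB1* with 2.4-fold and *TGFB2* with 1.94-fold, whereas *LTBP4* did not pass the threshold. Of all symbols 53.9% passed the threshold, 27.9% as higher and 26% as lower in NASH, around a median log2 fold change of 0.00. In the same 5 genes every animal with NASH stood above every control, a separation that 18.4% of all symbols showed in this direction and 33.7% in either. The 6 genes had a median log2 fold change of 1.41, and from so few genes nothing particular to them is read from these counts.

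**Figure D1:**
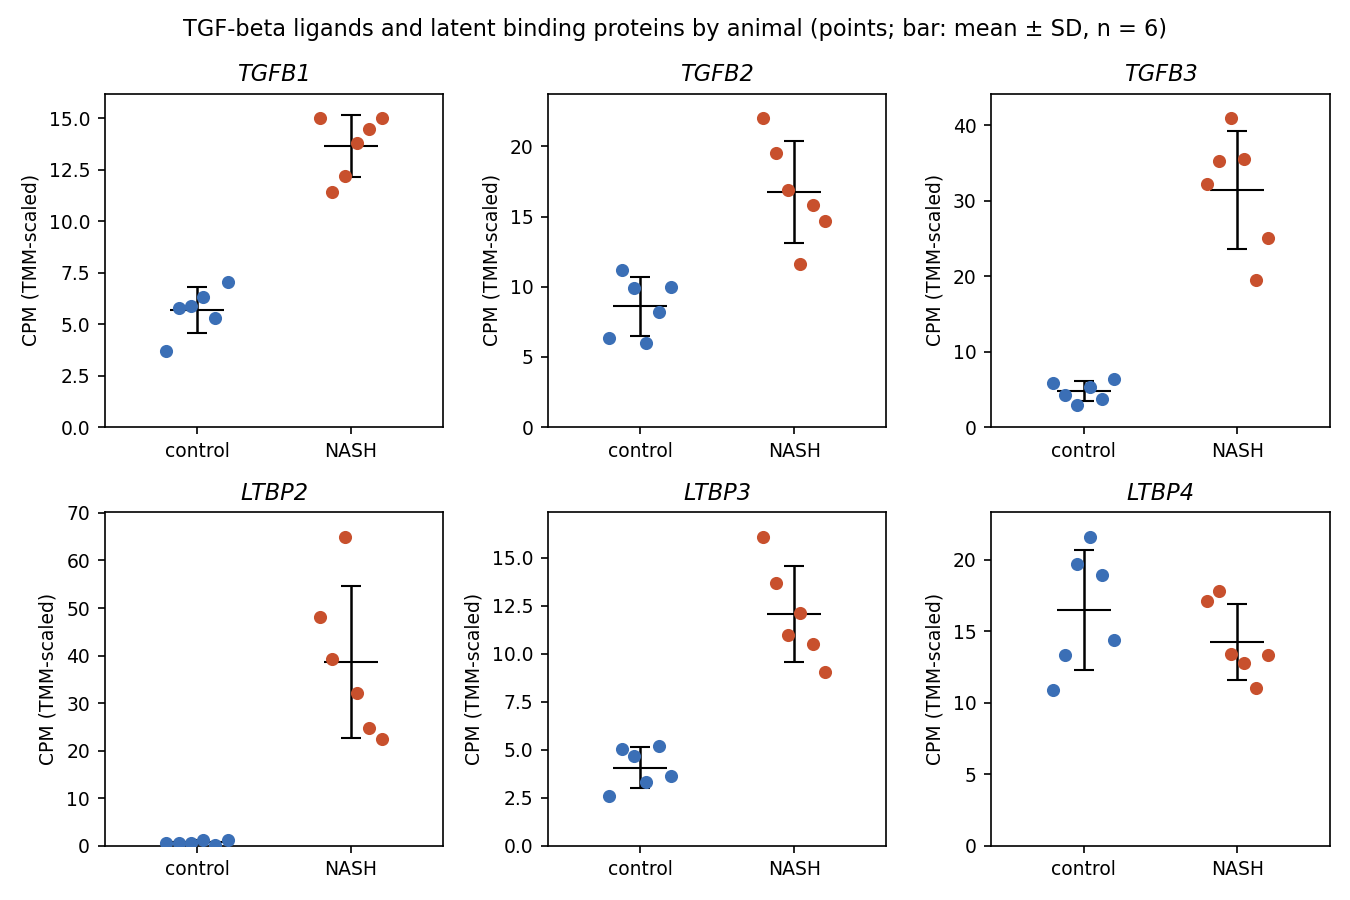
TMM-scaled CPM (y axis, from 0) of the 6 genes in each of the 6 controls and 6 guinea pigs with NASH (points), with the mean and SD of each group (black bars). In 5 panels the groups are apart, with *LTBP2* at no more than 1.29 CPM in controls and at least 22.5 CPM in NASH, and for *LTBP4* they overlap.

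*TGFB1*, the isoform made by immune cells, platelets and activated stellate cells, was at 3.72 CPM in control 5, 5.79 in control 10, 5.87 in control 31, 6.33 in control 32, 5.31 in control 45 and 7.07 in control 56. In guinea pigs with NASH it was at 15 CPM in animal 2, 11.4 in animal 9, 12.2 in animal 11, 13.8 in animal 20, 14.5 in animal 41 and 15 in animal 65. The groups did not overlap, and the animals with NASH lay within 1.32-fold of each other, the narrowest range of the 6 genes. The means were 5.68 ± 1.13 and 13.6 ± 1.52 CPM (SD, n = 6 each), and edgeR fitted a rise of 1.26 on the log2 scale with an SE of 0.13 (adjusted p = 6.8e-06). These values rest on 52 to 138 counts per control and 372 to 570 counts per animal with NASH. Leaving out any 1 animal kept the log2 fold change of *TGFB1* between 1.17 and 1.33.

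*TGFB2*, an isoform of epithelial and mesenchymal cells, was at 6.36 CPM in control 5, 11.2 in control 10, 9.92 in control 31, 6.01 in control 32, 8.19 in control 45 and 10 in control 56. In NASH it was at 22.0 CPM in animal 2, 19.5 in animal 9, 16.9 in animal 11, 11.6 in animal 20, 15.8 in animal 41 and 14.7 in animal 65. The groups were adjacent rather than distant, since the lowest animal with NASH stood just above the highest control. Means of 8.61 ± 2.11 and 16.8 ± 3.67 CPM (SD, n = 6 each) gave a rise of 0.96 on the log2 scale in edgeR, with an SE of 0.18 and an adjusted p of 0.00073.

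*TGFB3*, the isoform linked to mesenchymal cells and wound repair, was at 5.86 CPM in control 5, 4.31 in control 10, 2.93 in control 31, 5.28 in control 32, 3.70 in control 45 and 6.39 in control 56. The animals with NASH were at 32.2 CPM in animal 2, 35.2 in animal 9, 40.9 in animal 11, 35.5 in animal 20, 19.5 in animal 41 and 25.1 in animal 65. Thus even NASH 41 was well above the highest control. The group means were 4.75 ± 1.33 and 31.4 ± 7.78 CPM (SD, n = 6 each), which edgeR fitted as a rise of 2.74 (log2 scale, SE 0.22, adjusted p = 8.26e-07). Of all symbols, 2.75% had a higher fitted log2 fold change.

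*LTBP2* was close to the limit of detection in controls, with 7 counts in control 5, 12 in control 10, 12 in control 31, 28 in control 32, 3 in control 45 and 17 in control 56, or 0.123 to 1.29 CPM. In guinea pigs with NASH it was at 48.1 CPM in animal 2, 39.2 in animal 9, 65 in animal 11, 32.2 in animal 20, 24.8 in animal 41 and 22.5 in animal 65, on 643 to 1985 counts. Both groups spread more than those of the other genes, 10.4-fold among controls and 2.89-fold among animals with NASH, and the gap between the groups was larger than either. On the log2 scale the rise was 5.80 (SE 0.43) with a 95% interval from 4.87 to 6.72, and its adjusted p from edgeR was 4.53e-07. Only 47 symbols, 0.395% of all, had a higher fitted log2 fold change. The reads of the controls alone would not have reached the authors' minimum of 200, so *LTBP2* entered the table through the animals with NASH. Genes this low in controls are in the table only if they are high in NASH, so its rank is not read as a result. The size of the rise moved with the animals used, from 5.54 without control 45 to 6.1 without control 32 on the log2 scale.

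*LTBP3*, a carrier of latent ligands, was at 2.57 CPM in control 5, 5.03 in control 10, 4.66 in control 31, 3.30 in control 32, 5.19 in control 45 and 3.63 in control 56. In NASH it was at 16.1 CPM in animal 2, 13.7 in animal 9, 11 in animal 11, 12.1 in animal 20, 10.5 in animal 41 and 9.03 in animal 65, every value above those of the controls. With 4.06 ± 1.05 CPM for controls and 12.1 ± 2.51 CPM for NASH (SD, n = 6 each), the rise in edgeR was 1.56 on the log2 scale (SE 0.19, adjusted p = 1.67e-05).

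*LTBP4*, known for its part in elastic fibre assembly, was at 10.9 CPM in control 5, 13.3 in control 10, 19.7 in control 31, 21.6 in control 32, 18.9 in control 45 and 14.4 in control 56. The animals with NASH were at 17.1 CPM in animal 2, 17.8 in animal 9, 13.4 in animal 11, 12.8 in animal 20, 11 in animal 41 and 13.3 in animal 65, all within the range of the controls. The means were 16.5 ± 4.21 and 14.3 ± 2.65 CPM (SD, n = 6 each), and the log2 fold change of −0.21 from edgeR (adjusted p = 0.325) had a 95% interval from −0.59 to 0.17. A rise of the size fitted for *TGFB2* lies outside this interval. The sign of this value depended on the scaling. When libraries were scaled by their totals alone, all symbols had a median log2 fold change of 0.48 and *LTBP4* one of 0.26, or −0.22 relative to that median, while the other 5 genes stayed higher with log2 fold changes from 1.43 to 6.27.

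To ask whether one gene rose more than another, the difference of their log2 CPM was taken within each animal and compared between groups by permuting the animals in an exact, two-sided test. The scaling of a library cancels in such a difference, apart from the prior count. All 15 pairs of the 6 genes were compared and their p-values adjusted together. The smallest p-value that 6 animals against 6 allow is 0.00216, which is 0.00325 after this adjustment. In 13 of the 15 pairs the change differed between the genes.

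Among the ligands, *TGFB3* outpaced both others. The log2 ratio of *TGFB1* to *TGFB3* was 0.28 ± 0.54 in controls and −1.17 ± 0.51 in NASH (SD, n = 6 each), a difference of −1.44 (95% interval −2.11 to −0.76, adjusted p = 0.00541 from the exact permutation test). The log2 ratio of *TGFB2* to *TGFB3* went from 0.86 ± 0.65 to −0.89 ± 0.48 (SD, n = 6 each), without overlap between the groups (difference −1.75, adjusted p = 0.00325 from the exact permutation test). *TGFB1* and *TGFB2* were not told apart, with a difference of 0.31 in their log2 ratio and an interval from −0.17 to 0.79 (adjusted p = 0.188 from the exact permutation test).

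Among the binding proteins all 3 pairs differed. *LTBP2* against *LTBP3* went from a log2 ratio of −2.60 ± 1.22 in controls to 1.6 ± 0.49 in NASH (SD, n = 6 each), a difference of 4.20. *LTBP3* against *LTBP4* went from −2.00 ± 0.42 to −0.24 ± 0.20 (SD, n = 6 each), a difference of 1.75 with an interval from 1.35 to 2.16. In both pairs, and in *LTBP2* against *LTBP4*, the groups did not overlap (adjusted p = 0.00325 each from the exact permutation test).

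*LTBP2* also rose more than every ligand. The log2 ratio of *TGFB3* to *LTBP2* differed between groups by −3.05, that of *TGFB1* to *LTBP2* by −4.50 and that of *TGFB2* to *LTBP2* by −4.81, each without overlap (adjusted p = 0.00325 each from the exact permutation test). *TGFB3* in turn rose more than *LTBP3* by 1.15 (interval 0.31 to 1.97, adjusted p = 0.00999 from the exact permutation test). *LTBP3* rose more than *TGFB2*, with a difference in their log2 ratio of −0.61 for *TGFB2* over *LTBP3* (adjusted p = 0.00541 from the exact permutation test), but was not told apart from *TGFB1* (difference −0.30, interval −0.77 to 0.18, adjusted p = 0.193 from the exact permutation test). All 5 other genes rose relative to *LTBP4*, *TGFB2* by the least, 1.15. From the least to the largest rise the order was therefore *LTBP4*, *TGFB2*, *TGFB1*, *LTBP3*, *TGFB3* and *LTBP2*, in which *TGFB1* was not separable from either neighbour.

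**Figure D2:**
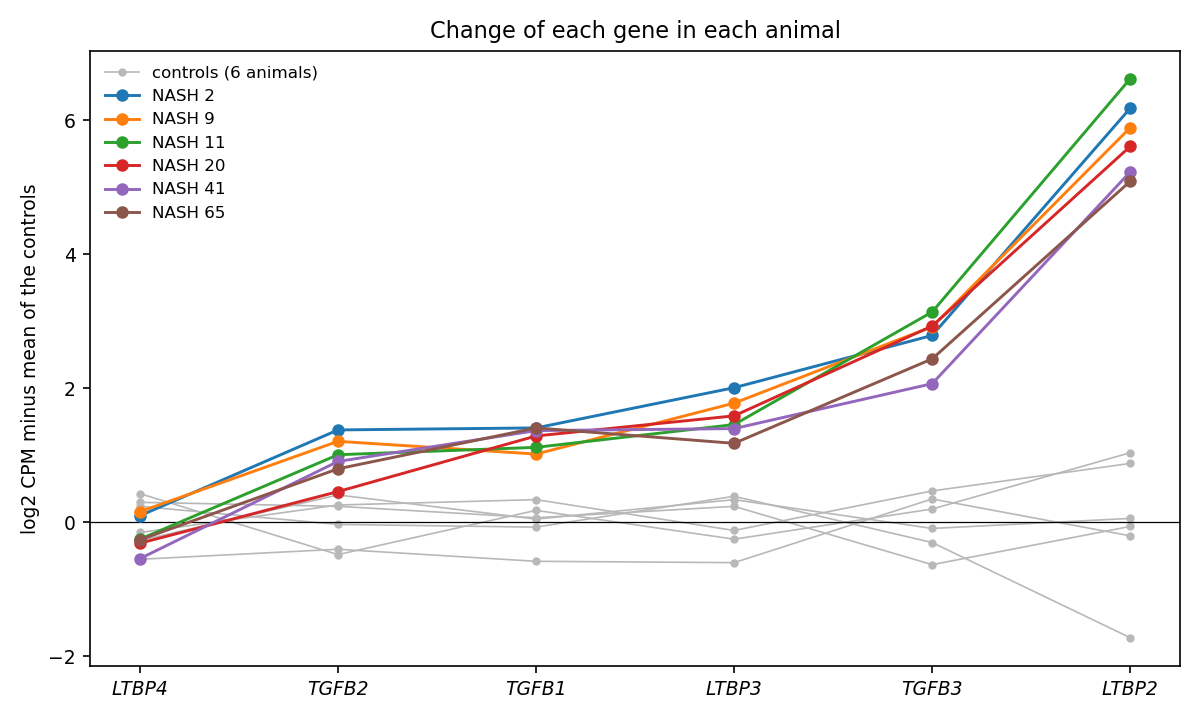
Log2 CPM of each gene (x axis, ordered by the size of the rise) minus the mean of the 6 controls (y axis), with a coloured line for each of the 6 guinea pigs with NASH and grey lines for the controls. The lines of all animals with NASH end highest at *LTBP2*, from 5.09 in animal 65 to 6.62 in animal 11, and start within the controls at *LTBP4*.

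The animals with NASH were not ordered alike by the genes. NASH 11 was highest for *LTBP2* and *TGFB3*, NASH 2 for *TGFB2* and *LTBP3*, NASH 65 and NASH 2 for *TGFB1*, and NASH 9 for *LTBP4*. NASH 41 and NASH 65 were the lowest of the group for both *LTBP2* and *TGFB3*, and also for *LTBP3*, whereas for *TGFB1* both were in the upper range. They are also the animals with the high summed RNA of red blood cell markers, and the part of blood in these values was not tested. With both left out, the log2 fold change was 6.04 for *LTBP2*, 2.92 for *TGFB3*, 1.68 for *LTBP3*, 1.02 for *TGFB2*, 1.19 for *TGFB1* and −0.11 for *LTBP4*, and the same 5 genes were past the threshold of edgeR. This alternative was chosen after the data were seen.

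The symbols whose deposited rlog values, a log2 scale with shrinkage of low counts, ran closest to each gene over the 12 animals were found from the mean absolute difference after centring each gene on its control mean. For *TGFB1* they were *SASH3*, at a mean difference of 0.0443, and *PLEKHO2* and AC069368.1, which share a count row, at 0.0475. *SASH3* encodes an adaptor of lymphocytes. *LAYN*, a hyaluronan receptor, was closest to *TGFB2* at 0.0726, with *MIER2* and *DOCK5* after it. *TGFB3* was nearest to *CD9*, a tetraspanin, at 0.119, followed by *CD200* and *FAT1*. Closest to *LTBP3* were *SESTD1*, *IL34*, a ligand of the macrophage receptor CSF1R, and *CLU*, at 0.0732 to 0.0811. For *LTBP2* the nearest were *CCL2*, a chemokine for monocytes, at 0.203, *KRT23* at 0.220 and *FABP5* at 0.229. With log2 CPM in place of rlog values, 2 of the 3 symbols were kept for *TGFB2*, 1 of 3 for *TGFB1* and 0 of 3 for *TGFB3*, *LTBP2* and *LTBP3*, so the identity of the nearest symbols depended on the scale.

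The other genes of the pathway were taken from lists of its well-known members. The counts of called genes in these lists, and in the marker lists below, stand beside 27.9% higher and 26% lower among all symbols. No list was tested as a set, and nothing particular to a list is read from a count near these shares. Of the partners that hold the latent complex, 5 of 7 were in the table, 2 higher and 1 lower in NASH, around a median of 0.28 on the log2 scale. *LRRC32*, which anchors latent TGF-beta on the cell surface of regulatory T cells and platelets, rose from 2.88 ± 0.827 to 4.82 ± 0.838 CPM (SD, n = 6 each; log2 fold change 0.74, adjusted p = 0.00783 from edgeR). *FN1*, the fibronectin gene, fell from 3370 ± 356 to 1700 ± 322 CPM (SD, n = 6 each; log2 fold change −0.99, adjusted p = 3.38e-05 from edgeR). Hepatocytes secrete plasma fibronectin in large amounts, and the summed hepatocyte markers were at 104000 to 134000 CPM in controls and 38900 to 65200 CPM in NASH. Their part in the value of *FN1* was not tested. *FBN1*, the fibrillin of the microfibrils that LTBPs attach to, was at 64.4 ± 30.2 CPM in controls and 78.3 ± 23.5 CPM in NASH (SD, n = 6 each), or 0.28 on the log2 scale (adjusted p = 0.457 from edgeR).

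Of the activators of the latent complex, 12 of 13 were in the table, and 8 were higher and 2 lower around a median of 1.24 on the log2 scale. *THBS1*, thrombospondin 1, was between 7.44 and 14.2 CPM in controls and between 121 and 213 CPM in NASH. The rise in edgeR was 4.06 on the log2 scale (SE 0.21, adjusted p = 6.86e-08). *ITGB8* and *ITGB6*, the β subunits that pair with αv to release latent TGF-beta, both rose from low levels. *ITGB6* went from 0.4 ± 0.122 to 2.13 ± 1.2 CPM (SD, n = 6 each; log2 fold change 2.41, adjusted p = 0.000277 from edgeR). *ITGB8* was at or near the limit of detection in controls, at 0 to 0.269 CPM, and at 0.385 to 2.72 CPM in NASH (adjusted p = 0.000649 from edgeR), and no fold change is given for it. The αv subunit itself, *ITGAV*, had a log2 fold change of 1.04 (adjusted p = 0.0416 from edgeR), but control 31 stood at 17.2 CPM where the highest control was at 191 CPM. Without control 31 the log2 fold change of *ITGAV* was 0.8 (SE 0.08, adjusted p = 9.29e-06 from edgeR). With control 31 kept, 10 of the 11 runs that left out 1 other animal lost the call, at log2 fold changes of 1.01 to 1.1 and adjusted p-values of up to 0.0679. It was also lost without NASH 41 and NASH 65 (1.1, adjusted p = 0.0755) and with every count row (1.13, adjusted p = 0.053 from edgeR). *FURIN*, the protease that cuts the ligand precursors, fell from 396 ± 26.3 to 245 ± 59.2 CPM (SD, n = 6 each; log2 fold change −0.69, adjusted p = 0.00172 from edgeR), a call that was lost with library size alone (log2 fold change −0.22).

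All 5 receptors were in the table and 1 passed the threshold, *ACVRL1*, a type I receptor of endothelium, which rose by 0.88 (adjusted p = 0.0057 from edgeR). *TGFBR2*, the receptor that binds the ligand first, was at 248 ± 33.4 CPM in controls and 210 ± 42.2 CPM in NASH (SD, n = 6 each; log2 fold change −0.24, adjusted p = 0.175 from edgeR). Its signalling partner *TGFBR1* varied widely among animals, from 55.5 to 366 CPM in controls and from 58.6 to 308 CPM in NASH, and edgeR gave 0.28 on the log2 scale (SE 0.47, adjusted p = 0.632). The co-receptors *TGFBR3* and *ENG* had log2 fold changes of −0.22 and −0.30 (adjusted p = 0.276 and 0.055 from edgeR). With library size alone *TGFBR2*, *TGFBR3* and *ENG* were above 0 instead, at 0.23, 0.26 and 0.16, and *ENG* passed the threshold as lower with DESeq2 (adjusted p = 0.0415).

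Of the SMADs and their cofactors 7 of 8 could be measured, and 2 rose and 0 fell around a median of 0.06. *SMAD3* rose from 2.09 ± 0.5 to 4.02 ± 0.904 CPM (SD, n = 6 each; log2 fold change 0.93, adjusted p = 0.00153 from edgeR) and *SMAD2* from 28.5 ± 3.04 to 39.3 ± 4.24 CPM (SD, n = 6 each; log2 fold change 0.46, adjusted p = 0.00103 from edgeR). For *SMAD4*, their shared partner, the value was −0.55 ± 0.32 (SE, log2 scale, adjusted p = 0.162 from edgeR). Among the inhibitors, with 10 of 12 measured, 4 were called higher and 3 lower around a median of 0.22. The largest rise was that of *FMOD*, a matrix proteoglycan that binds TGF-beta, by 3.57 (SE 0.46, adjusted p = 3.53e-05 from edgeR). *SMAD7*, the feedback inhibitor induced by TGF-beta itself, fell by 0.54 on the log2 scale, from 29.2 ± 7.86 to 20.1 ± 3.48 CPM with overlap between the groups (SD, n = 6 each; adjusted p = 0.0199 from edgeR). This call was lost with library size alone (log2 fold change −0.07) and without NASH 41 and NASH 65 (log2 fold change −0.41, adjusted p = 0.0919 from edgeR), as were the calls of both other lower inhibitors, *SMAD6* (−0.33) and *BGN* (−0.50). That of *SMAD6* was also lost in 8 of the 12 runs that left out 1 animal, at log2 fold changes of −0.32 to −0.28.

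Among the target genes 15 of 16 were in the table, and 11 of them were higher and 2 lower around a median of 1.71 on the log2 scale. *COL1A1*, a chain of type I collagen, rose from 7.24 ± 3.61 to 135 ± 61 CPM (SD, n = 6 each; log2 fold change 4.21, adjusted p = 2.76e-06 from edgeR). *ACTA2*, the smooth muscle actin of myofibroblasts, rose by 1.15 (adjusted p = 0.00948 from edgeR) with overlapping groups. *CCN2*, connective tissue growth factor, rose by 0.81 (adjusted p = 0.0228 from edgeR), and without NASH 9 its adjusted p-value was 0.0522. The 2 lower genes were *ID1*, which is known to respond to bone morphogenetic proteins and fell by 1.5 (adjusted p = 4.38e-06 from edgeR), and *POSTN*, a matrix protein named here because it was the other lower gene, which fell by 0.8 (adjusted p = 0.00443 from edgeR), a call that was lost with library size alone. These genes answer to other signals as well and are not specific to TGF-beta.

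Of the other ligands of the family and their antagonists 12 of 17 were measured, and 5 were called higher and 4 lower around a median of 0.32. Of these calls, that of *FST*, the activin antagonist follistatin (log2 fold change 0.97, adjusted p = 0.044 from edgeR), was lost in 10 of the 12 runs that left out 1 animal, at 0.78 to 1.03, and without NASH 41 and NASH 65 (1.01). That of *GDF2*, a bone morphogenetic protein (−0.35), was lost with library size alone (0.12) and with every count row (−0.27). *INHBB*, the βB subunit of activin, rose from 1.29 ± 0.291 to 11.6 ± 10.9 CPM (SD, n = 6 each; log2 fold change 3.17, adjusted p = 0.000188 from edgeR), with a range in NASH from 4.03 to 33.3 CPM. Without NASH 11 the log2 fold change of *INHBB* was 2.49 (adjusted p = 1.09e-05 from edgeR). *INHBC*, an activin subunit of hepatocytes, fell from 105 ± 17.7 to 40 ± 7.37 CPM (SD, n = 6 each; log2 fold change −1.39, adjusted p = 4.46e-06 from edgeR).

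**Figure D3:**
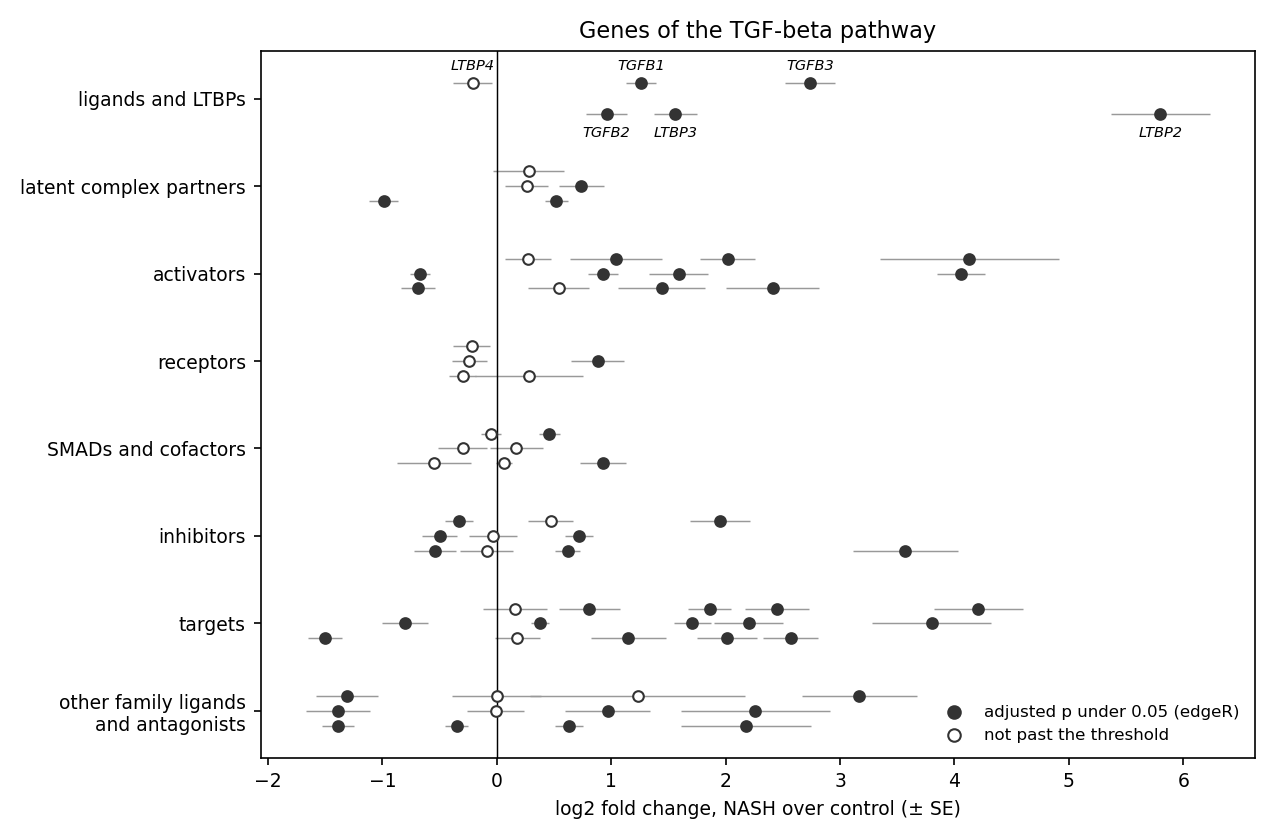
Log2 fold changes, NASH over control (x axis, ± SE), of the 6 ligand and LTBP genes and of the genes of each pathway list found in the table (rows), filled where the adjusted p-value from edgeR was under 0.05. Activators and targets lie mostly to the right of 0, with medians of 1.24 and 1.71, and receptors lie around it, with 1 of 5 past the threshold.

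The RNA came from whole liver tissue, in which more cells of a type and more RNA per cell cannot be told apart, and the markers of several cell types moved with the ligands and LTBPs. Of the stellate cell and myofibroblast list all 13 genes were in the table, 9 higher and 1 lower, of which 5 higher genes, *COL1A1*, *COL1A2*, *COL3A1*, *ACTA2* and *DCN*, are also counted above among the targets and inhibitors. Their summed level was between 804 and 983 CPM in controls and between 1700 and 3360 CPM in NASH. *DCN*, decorin, was at 306 ± 25.8 CPM in controls and 469 ± 75.7 CPM in NASH (SD, n = 6 each). Of the cholangiocyte list 5 of the 6 genes found were higher, with sums from 93.2 to 142 CPM and from 331 to 580 CPM, of which *KRT19*, a keratin of bile ducts, took 55.4 ± 14 CPM in controls and 173 ± 27.4 CPM in NASH (SD, n = 6 each). For macrophages 8 of 11 genes were found, 3 higher and 1 lower, with sums from 400 to 741 CPM in controls and from 900 to 1210 CPM in NASH. *GPNMB*, a gene of lipid-laden macrophages, was at 54 ± 20.2 CPM in controls and 498 ± 64 CPM in NASH (SD, n = 6 each). The other 7 genes summed to 536 ± 113 CPM in controls and 544 ± 62.4 CPM in NASH (SD, n = 6 each), with overlap between the groups. These 7 genes did not move alike. *CD68* rose from 174 ± 14.3 to 280 ± 23.1 CPM (SD, n = 6 each) without overlap. *TREM2*, at 0 to 0.413 CPM in controls, was at 9.08 to 19.3 CPM in NASH. *MARCO* fell from 80.8 ± 30.5 to 33.4 ± 12 CPM (SD, n = 6 each) with overlap, and the other 4 did not pass the threshold. This split and the genes named in it were chosen after the data were seen.

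Of the endothelial list 9 of 10 genes were found, 3 higher and 2 lower, and the sums overlapped, at 644 to 928 CPM and 718 to 1000 CPM, of which *STAB2* took 208 ± 18 CPM in controls and 284 ± 50.8 CPM in NASH (SD, n = 6 each). Members of this list went both ways without overlap between the groups. *VWF* rose from 16.6 ± 2.44 to 45.6 ± 11.5 CPM, and *LYVE1* fell from 118 ± 16.7 to 66.9 ± 13.7 CPM (SD, n = 6 each). Of the T cell list 5 of 6 genes were found, and 1 rose and 1 fell, with sums from 52.9 to 109 CPM in controls and from 30.4 to 58 CPM in NASH. The gene that fell, *CD3E*, took most of these sums, at 69 ± 21.6 and 33 ± 10.7 CPM (SD, n = 6 each). The gene that rose was *CD8A*, from 1.22 ± 0.444 to 3.01 ± 0.776 CPM (SD, n = 6 each; adjusted p = 0.00111 from edgeR). For platelets 1 of 6 genes was found, *ITGA2B*, on a count row that carries a further symbol, at 84.4 ± 12 and 78.8 ± 9.84 CPM (SD, n = 6 each). All 3 erythroid genes found of 6 were higher, with sums from 57 to 171 CPM and from 426 to 4520 CPM. Of the hepatocyte list 9 of 10 genes were found, 8 lower and 0 higher. Of these, *ASGR1*, an asialoglycoprotein receptor chain, had a log2 fold change of −0.18 (adjusted p = 0.0453 from edgeR), lost its call in 8 of the 12 runs that left out 1 animal at log2 fold changes of −0.19 to −0.15, and was called higher with library size alone (0.29, adjusted p = 0.00266 from edgeR). None of the marker genes found was at 0 in all animals. The part of these cell types in the rises of the 5 genes was not tested.

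**Figure D4:**
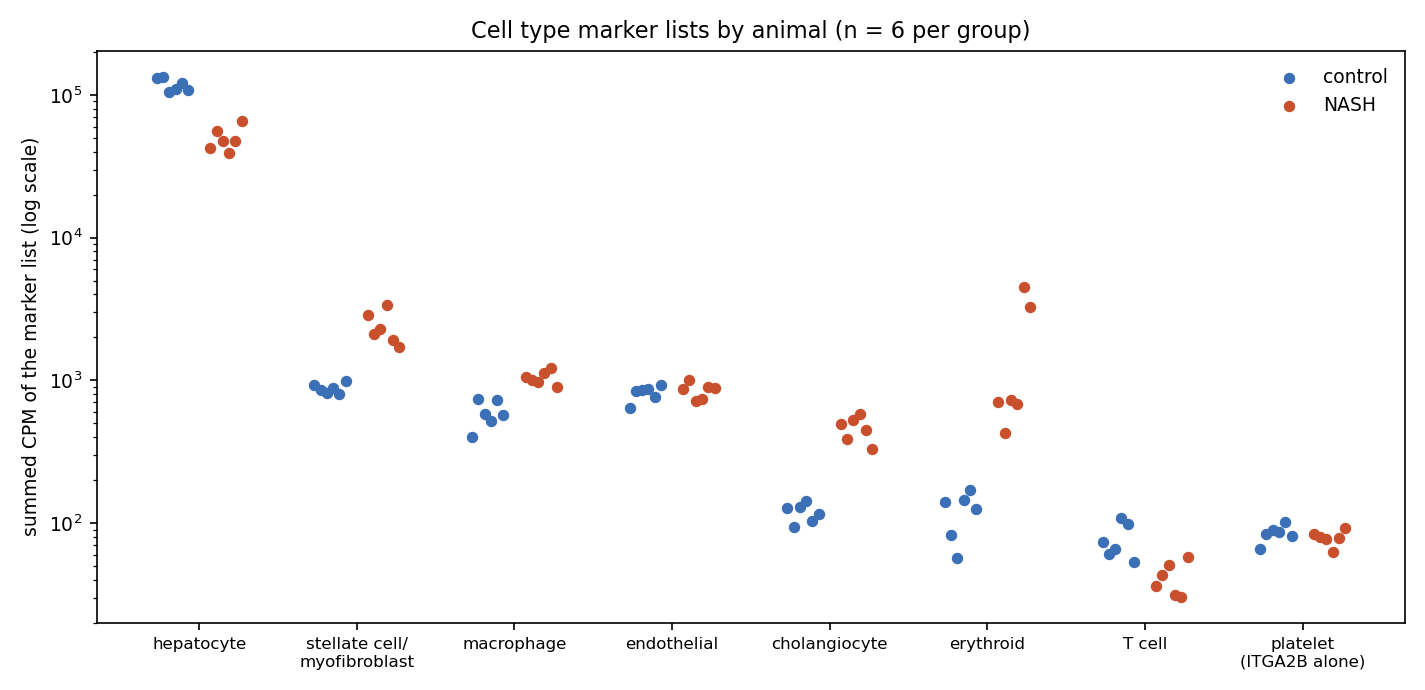
Summed CPM of each cell type marker list (y axis, log scale) in each of the 6 controls and 6 guinea pigs with NASH (points). The stellate cell, cholangiocyte, erythroid and macrophage sums of all animals with NASH lie above those of all controls. Without *GPNMB* the macrophage sums overlap, and genes of that list went both ways. The hepatocyte sums of all animals with NASH lie below those of all controls, and the endothelial and T cell sums and *ITGA2B* overlap.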

How the data were processed

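Liver mRNA of 12 guinea pigs was sequenced from TruSeq libraries. The authors trimmed reads with Trimmomatic (0.38.0), mapped them with HISAT2 (2.1.0) to the Ensembl genome Cavpor3.0, ignored multimapped reads and quantified loci with StringTie (1.3.6). They deposited raw counts per locus, without normalisation, and rlog values on the log2 scale made with DESeq2 for symbols of human orthologues. The count table holds no symbols, so each symbol's row was identified from rlog values recomputed with DESeq2 1.42.0. For all 11896 symbols recomputed and deposited values differed by at most 8e-07, and none of the 6 genes shared its row with another symbol. Counts were tested in R 4.3.3 with edgeR 4.0.16 (TMM, library sizes summed over all loci, robust glmQLFit, glmQLFTest, Benjamini-Hochberg adjustment over the 11896 symbols). The SE was derived from the F statistic as the absolute log2 fold change divided by its root. Log2 CPM values use a prior count of 2. Intervals of log2 ratios hold the shifts that the exact permutation test did not reject at 0.05.

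Alternatives were RLE factors, library size alone, DESeq2, limma-voom (limma 3.58.1), every row with at least 1 count, filterByExpr, each animal left out in turn, a prior count of 0.5 and rlog values for the ratios. The genes and the pathway and marker lists were chosen with earlier results of these data known. Named besides the 6 genes were the highest and lowest log2 fold change past the threshold in each pathway list, a fixed set of core pathway genes, the 3 closest patterns and the marker with most CPM over all animals of each cell type. *POSTN*, *ASGR1*, *FST*, *GDF2*, *SMAD6*, *BGN*, *TEK*, *CD68*, *TREM2*, *MARCO*, *VWF*, *LYVE1* and *CD8A* were chosen after their values were seen. A target gene covered by this rule is not reported here. The labels give no batch. Within groups, any pair of libraries differed by 44.5 or more times the counting variance, so none was a repeat of another. In simulated data with 200 of 11031 rows changed, edgeR recovered 32.5% at 1.5-fold, 93.5% at 2-fold and 100% at 4-fold. Every simulated row had the same dispersion and few rows were changed, whereas 53.9% of all symbols passed the threshold in these data. The recovered shares are therefore not the power of this comparison. Counting limits cover counting error only. Protein and promoter sequences were not used here. Plots were made in matplotlib 3.10.9 under Python 3.11.15.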

Additional observations from a re-analysis of the deposited data

Results flagged for a closer look

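In 42 groups of 6 values (the CPM of the 6 genes and the 15 log2 ratios, in each group), 2 held an animal far from the rest, its gap to the next animal exceeding Dixon's 95% critical share of the whole range, and chance gives about 1 such group in 20. The log2 ratio of *TGFB2* to *LTBP3* was −0.06 in NASH 20, a gap of 0.677 of the range, and this animal had the lowest *TGFB2* of its group. The log2 ratio of *LTBP2* to *LTBP3* was 2.56 in NASH 11, a gap of 0.739 of the range, and this animal had the highest *LTBP2* of its group.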

How the results depend on the processing

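Over 19 alternatives each, *TGFB1* (log2 fold change 1.17 to 1.73), *TGFB2* (0.86 to 1.43), *TGFB3* (2.63 to 3.22), *LTBP2* (5.54 to 6.27) and *LTBP3* (1.46 to 2.04) stayed past the threshold, with the highest adjusted p-value at 0.00248 for *TGFB2*, whereas *LTBP4* ranged from −0.30 to 0.26 and never passed it (adjusted p from 0.125 to 0.646). All 15 log2 ratios kept their direction and their side of the threshold in every alternative, although with rlog values, which shrink low counts, the differences were smaller, such as 2.81 for *LTBP2* over *LTBP4*. With library size alone, which moves the median of all symbols to 0.48 and the calls to 7603 higher and 911 lower, the log2 fold change changed sign for 20 of the 120 genes of all lists, of which 4 were past the threshold before (*ASGR1*, *GDF2*, *SMAD6* and *TEK*). Among the others were *LTBP4* (0.26), *ENG* (0.16), *TGFBR2* (0.23), *TGFBR3* (0.26) and *ITGA2B* (0.37). There, of the lists 1 activator, 0 inhibitors and 1 target were lower and 4 latent complex partners and 5 SMADs or cofactors were higher, as were 5 macrophage markers, while 6 hepatocyte markers were lower and 1 higher. With every row of at least 1 count, 1 inhibitor and 7 hepatocyte markers were lower, and without NASH 41 and NASH 65 no inhibitor was (0). Of the receptors, 1 was lower with DESeq2, with limma-voom and without NASH 41 and NASH 65, and 0 to 1 when single animals were left out. The cause was not tested. No paired analysis was possible because the animals of both groups share no number. Depth limits *LTBP2* in controls, at 3 to 28 counts, and *ITGB8*.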

Other observations

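Genes of the pathway lists not described above, chosen after their values were seen, also passed the threshold. *SKIL*, the SnoN corepressor that is itself induced by TGF-beta, rose from 1.32 ± 0.49 to 5.13 ± 1.21 CPM (SD, n = 6 each; log2 fold change 1.95, adjusted p = 4.79e-05 from edgeR). *TIMP1*, an inhibitor of matrix metalloproteinases, went from 25.3 ± 13.8 to 116 ± 20.5 CPM (SD, n = 6 each; log2 fold change 2.2, adjusted p = 5.44e-05 from edgeR), and *PLAU*, urokinase, from 15.9 ± 5.23 to 48.1 ± 11 CPM (SD, n = 6 each; log2 fold change 1.59, adjusted p = 0.000233 from edgeR). None of the 3 had groups that overlapped. *GREM1*, an antagonist of bone morphogenetic proteins, was lower in NASH with overlapping groups, at 4.69 ± 1.14 and 1.88 ± 0.853 CPM (SD, n = 6 each; log2 fold change −1.31, adjusted p = 0.00124 from edgeR).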
